A study of Arabidopsis thaliana with 28 samples.

Results

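Transcripts of 10 Arabidopsis thaliana genes for pre-mRNA splicing and RNA-binding proteins were followed in nuclear and cytoplasmic RNA of the mutant mos11 and the wild type Col-0. The genes were taken by locus identifier, with no use of their measured values, and make up 10 of the 30901 genes in the deposited count table. They are the glycine-rich RNA-binding protein genes GRP7 (AT2G21660) and GRP8 (AT4G39260, named CCR1 in RefSeq), the polypyrimidine tract-binding protein genes PTB1 (AT3G01150), PTB2 (AT5G53180) and PTB3 (AT1G43190), the genes U2AF65A (AT4G36690) and U2AF65B (AT1G60900) for the large subunit of U2AF, the genes U2AF35A (AT1G27650) and U2AF35B (AT5G42820) for its small subunit, and U1-70K (AT3G50670). All 10 passed the filter on low counts that left 16207 genes for testing.

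The 4 groups were mos11 nuclei (n = 5 libraries), Col-0 nuclei (n = 4), mos11 cytoplasm (n = 5) and Col-0 cytoplasm (n = 4), all from rosettes of plants aged 14 days. MOS11 codes for a small RNA-binding protein that takes part in the export of mRNA from the nucleus, and the design text names export defects of the mutant as the question. The labels name the mutant only as mos11, with no allele, and no rescued line was among the samples. Replicates carry numbers in the labels with no word on separate plants, so a p-value here reflects the spread among these libraries alone, and part of that spread may be technical.

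In a plant pre-mRNA, the U1 snRNP pairs with the 5′ splice site, and its protein U1-70K contacts other splicing factors there. At the other end of the intron, the large subunit of U2AF binds the pyrimidine tract and the small subunit binds the AG that ends the intron. PTB proteins and GRP7 and GRP8 bind RNA and alter which splice sites are used, and several of these genes are known to regulate their own or each other's transcripts through alternative splicing. GRP7 is also known as a gene under the control of the circadian clock that acts with its close relative GRP8 in a feedback loop.

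Total counts were 1966574 to 18213517 in mos11 nuclei, 2547560 to 3719008 in Col-0 nuclei, 907270 to 1280371 in the mos11 cytoplasm and 556016 to 1160001 in the Col-0 cytoplasm. Levels are given as CPM (read counts scaled to library size, with TMM factors), which are relative to the other RNA of the same fraction. The 4 rosette leaf markers summed to between 3.79e+03 and 6.15e+04 CPM in every library, and the 3 flower markers to at most 5.76 CPM. The 2 root markers, PYK10 and PHT1;1, were also present, summing to 670 to 755 CPM in mos11 nuclei, 433 to 855 CPM in Col-0 nuclei, 313 to 505 CPM in the mos11 cytoplasm and 175 to 379 CPM in the Col-0 cytoplasm. Their part in the results was not tested, and in bulk RNA fewer cells of a type and less RNA per cell cannot be told apart. The MOS11 transcript (AT5G02770) averaged 169 ± 9.1 CPM in mos11 nuclei (SD, n = 5), against 205 ± 15 CPM in Col-0 nuclei (SD, n = 4), and 8.31 ± 2.7 CPM in the mos11 cytoplasm (SD, n = 5), against 108 ± 18 CPM in the Col-0 cytoplasm (SD, n = 4). An antisense neighbour, AT5G02760, overlaps it, and no source states on which strand reads were counted.

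The 300 bases before the annotated start of GRP7 and GRP8 are shown because both genes are known clock outputs and the evening element, a motif bound by the clock proteins CCA1 and LHY, falls in each window. The sequences were read from TAIR10.1 at chr2:9266558-9266857 and chr4:18275217-18275516, both on the minus strand, 5′ to 3′ along the gene, and capitals mark the evening element, AAAATATCT on the gene strand or AGATATTTT on the other.
GRP7 promoter: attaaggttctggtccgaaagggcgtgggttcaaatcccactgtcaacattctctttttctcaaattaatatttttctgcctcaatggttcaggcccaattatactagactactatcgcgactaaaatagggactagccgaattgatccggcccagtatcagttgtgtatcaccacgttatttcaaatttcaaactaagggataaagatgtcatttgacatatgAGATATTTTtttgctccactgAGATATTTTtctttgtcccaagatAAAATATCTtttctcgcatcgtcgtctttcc
GRP8 promoter: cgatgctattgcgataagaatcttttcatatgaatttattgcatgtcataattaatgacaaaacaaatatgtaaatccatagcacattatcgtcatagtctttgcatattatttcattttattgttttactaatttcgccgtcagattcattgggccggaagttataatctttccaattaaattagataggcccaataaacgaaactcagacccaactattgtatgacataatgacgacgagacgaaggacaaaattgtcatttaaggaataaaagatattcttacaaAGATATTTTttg
The GRP7 window held 3 evening elements, at 76 to 68, 55 to 47 and 31 to 23 bases before the start. The GRP8 window held 1, at 12 to 4 bases before it, and the other 8 genes held none in theirs. Of all 30899 windows of the same length, 841 (2.72%) held the motif on either strand. The related CCA1 binding site, AAAAATCT, was in none of the 10 windows and in 7.75% of all windows.

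The 10 genes differed in how many exons their transcripts hold and in how they lie among their neighbours. On TAIR10.1, U2AF65A (chromosome 4, 17293938 to 17297761) and U2AF65B (chromosome 1, 22423894 to 22428053) had transcripts of up to 13 exons, PTB1 (chromosome 3, 51496 to 54544) of up to 10, PTB2 (chromosome 5, 21568131 to 21571904) of up to 11 and PTB3 (chromosome 1, 16275108 to 16278742) of up to 15. U1-70K (chromosome 3, 18826160 to 18829684) had up to 9 exons. GRP7 (chromosome 2, 9265084 to 9266557), GRP8 (chromosome 4, 18273829 to 18275216) and U2AF35B (chromosome 5, 17169283 to 17172787) had up to 3, and U2AF35A (chromosome 1, 9614551 to 9616574) had up to 2. PTB1 and U2AF35A each overlap 1 gene on the other strand and U2AF35B overlaps 3, where reads from both strands could have been counted. Each family holds similar copies, and the sources do not state how reads matching several copies were treated.

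An intron of 909 bases in U1-70K (chr3:18827440-18828348, minus strand) is annotated as spliced in one transcript and as retained in another. Its ends are shown because they are where U1 and U2AF act, with capitals marking the first and last 2 bases of the intron.
U1-70K donor: cggGTaggttatt
U1-70K acceptor: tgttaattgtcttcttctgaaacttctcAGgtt
Of the 28 bases before the AG, 20 were pyrimidines. The deposited counts are per gene, so reads from the spliced and the retained transcript could not be separated.

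Per kilobase of annotated exon, U2AF65A was the most abundant of the 10 transcripts in the nucleus and GRP8 in the cytoplasm. U2AF65A averaged 252 ± 9.5 CPM per kilobase in mos11 nuclei (SD, n = 5) and 275 ± 51 in Col-0 nuclei (SD, n = 4). U2AF65B followed at 119 ± 5.1 and U1-70K at 101 ± 5.3 in mos11 nuclei, with GRP8 at 83.9 ± 9.5 (SD, n = 5 each). The other 6 genes lay between 12.1 for U2AF35B and 29.3 for PTB3 in mos11 nuclei, and there U2AF35A at 21.6 ± 1.9, PTB2 at 19.8 ± 0.66 and GRP7 at 19.5 ± 2.4 were within 1 SD of a neighbour in the order.

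In the mos11 cytoplasm GRP8 stood at 178 ± 21 CPM per kilobase and U2AF65A, next in order, at 70.3 ± 7.8 (SD, n = 5 each). GRP7 at 64.9 ± 11, U2AF35A at 59.9 ± 7.1, U1-70K at 53.2 ± 4.8, U2AF65B at 48 ± 9.8 and PTB3 at 45.8 ± 3.3 formed a run in which each neighbour lay within the SD of the one before or after it. PTB2 at 15.2 ± 2.9 and PTB1 at 13.1 ± 3.8 were the lowest. In the Col-0 cytoplasm PTB3 stood higher in this order, at 70.8 ± 7.7, beside GRP7 at 74.5 ± 24 (SD, n = 4 each).

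**Figure D1:**
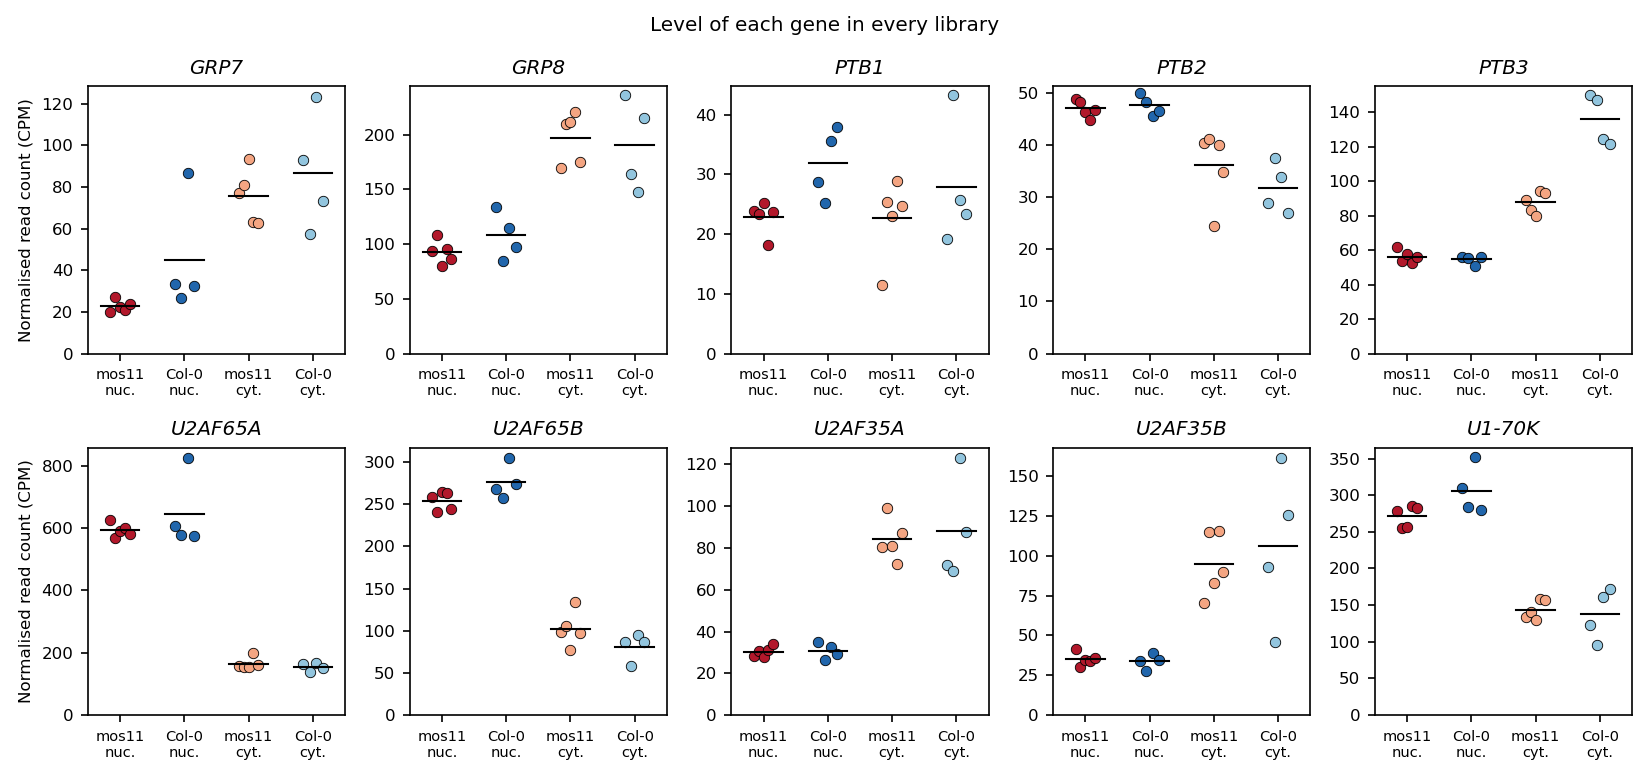
CPM of each of the 10 genes in every library (vertical axis from 0), by group, with each point a library and the line the group mean. For PTB3 in the cytoplasm the 5 mos11 libraries and the 4 Col-0 libraries do not overlap, and GRP7 in Col-0 nuclei has 1 library at 86.8 CPM above the other 3.

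Between the fractions, the 10 transcripts split in both genotypes. By edgeR's quasi-likelihood test with Benjamini-Hochberg adjustment, 4 were higher in the nucleus and 5 were lower there in mos11, and the same counts held in Col-0, where all genes gave 76.1% called in mos11 (40.8% higher in the nucleus, 35.3% lower) and 73.5% in Col-0 (40.6% higher, 32.8% lower). Being called was thus common to most genes, and the side on which each member lay is given below. The share of all genes without overlap between the fractions was not counted. The median log2 ratio of nucleus to cytoplasm was -0.32 over the 10 genes and 0.18 over all genes in mos11, and -0.28 and 0.30 in Col-0. Another scaling, by median of ratios, moved the median of all genes to 0.42 in mos11 and 0.48 in Col-0. Cytoplasmic libraries were sequenced on 2 flow cells and, except for replicate 2 of mos11, nuclear libraries on 1, so fraction and flow cell cannot be told apart.

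Both genes for the large subunit of U2AF, which binds the pyrimidine tract, were higher in the nucleus. U2AF65A stood at 627, 567, 590, 599 and 580 CPM in mos11 nuclei, against 158, 155, 155, 198 and 160 CPM in the mos11 cytoplasm. In Col-0 it stood at 607, 579, 824 and 574 CPM in nuclei, against 163, 138, 167 and 152 CPM in the cytoplasm. No nuclear library overlapped a cytoplasmic one in either genotype. The log2 ratio was 1.84 ± 0.11 in mos11 (adjusted p = 1.6e-14, edgeR) and 2.05 ± 0.13 in Col-0 (adjusted p = 5.2e-14, edgeR).

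U2AF65B, its close relative, stood at 258, 241, 265, 263 and 244 CPM in mos11 nuclei, against 98.0, 105, 76.6, 134 and 97.5 CPM in the mos11 cytoplasm. In Col-0 nuclei it stood at 268, 258, 305 and 274 CPM, against 86.3, 57.6, 94.9 and 86.0 CPM in the cytoplasm. The groups did not overlap, and the log2 ratio was 1.30 ± 0.12 in mos11 and 1.73 ± 0.15 in Col-0 (adjusted p = 1.6e-10 and 2.6e-11, edgeR). The difference between the genotypes in this ratio was -0.43 ± 0.19 and did not pass the threshold (adjusted p = 0.27, edgeR).

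Both genes for the small subunit of U2AF, which reads the AG at the end of the intron, were lower in the nucleus. U2AF35A stood at 28.3, 30.6, 27.6, 31.2 and 34.2 CPM in mos11 nuclei, against 80.7, 99.2, 81.2, 72.2 and 87.4 CPM in the mos11 cytoplasm. In Col-0 it stood at 35.2, 26.4, 32.6 and 29.1 CPM in nuclei, against 71.9, 69.1, 123 and 87.8 CPM in the cytoplasm. The log2 ratio of nucleus to cytoplasm was -1.47 ± 0.14 in mos11 and -1.56 ± 0.17 in Col-0 (adjusted p = 2.7e-10 and 2.8e-09, edgeR), with no overlap between the groups.

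U2AF35B ranged from 30.3 to 41.3 CPM in mos11 nuclei, against 70.3 to 115 CPM in the mos11 cytoplasm, and from 27.9 to 38.9 CPM in Col-0 nuclei, against 46.1 to 161 CPM in the Col-0 cytoplasm. Its log2 ratio was -1.45 ± 0.18 in mos11 and -1.73 ± 0.21 in Col-0 (adjusted p = 6.9e-08 and 5.1e-08, edgeR). Transcripts of the 2 subunits thus lay on opposite sides, with the large subunit genes higher and the small subunit genes lower in the nucleus.

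U1-70K, the U1 snRNP protein, was higher in the nucleus. It stood at 279, 256, 257, 285 and 283 CPM in mos11 nuclei, against 134, 140, 130, 158 and 157 CPM in the mos11 cytoplasm. In Col-0 nuclei it stood at 310, 283, 352 and 280 CPM, against 123, 95, 161 and 172 CPM in the cytoplasm. The log2 ratio was 0.92 ± 0.12 in mos11 and 1.12 ± 0.14 in Col-0 (adjusted p = 8.3e-08 and 3.8e-08, edgeR), and the groups did not overlap.

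GRP7 and GRP8 were lower in the nucleus in both genotypes. GRP8 ranged from 79.6 to 108 CPM in mos11 nuclei, against 170 to 221 CPM in the mos11 cytoplasm, and from 84.9 to 134 CPM in Col-0 nuclei, against 148 to 237 CPM in the Col-0 cytoplasm, with log2 ratios of -1.08 ± 0.14 and -0.83 ± 0.16. GRP7 had log2 ratios of -1.70 ± 0.26 in mos11 and -1.03 ± 0.28 in Col-0 (adjusted p = 1.2e-06 and 0.0022, edgeR). In Col-0 replicate 3 of the nuclei, at 86.8 CPM, was the 1 nuclear library that lay within the cytoplasmic range, and without it the Col-0 ratio was -1.56.

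The 3 PTB genes, known as splicing regulators that bind pyrimidine-rich RNA, did not lie on 1 side. PTB2 was higher in the nucleus, with log2 ratios of 0.36 ± 0.13 in mos11 and 0.60 ± 0.17 in Col-0 (adjusted p = 0.013 and 0.002, edgeR), and PTB3 was lower there, with -0.65 ± 0.10 and -1.31 ± 0.12 (adjusted p = 2.8e-06 and 1e-10, edgeR). PTB1 ratios of 0.02 ± 0.21 and 0.28 ± 0.24 did not pass the threshold in either genotype, with 95% intervals from -0.41 to 0.44 in mos11 and from -0.23 to 0.78 in Col-0. PTB2 was no longer called in a test against a change of 1.5-fold in either genotype, nor was PTB3 in mos11 (adjusted p = 0.16).

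**Figure D2:**
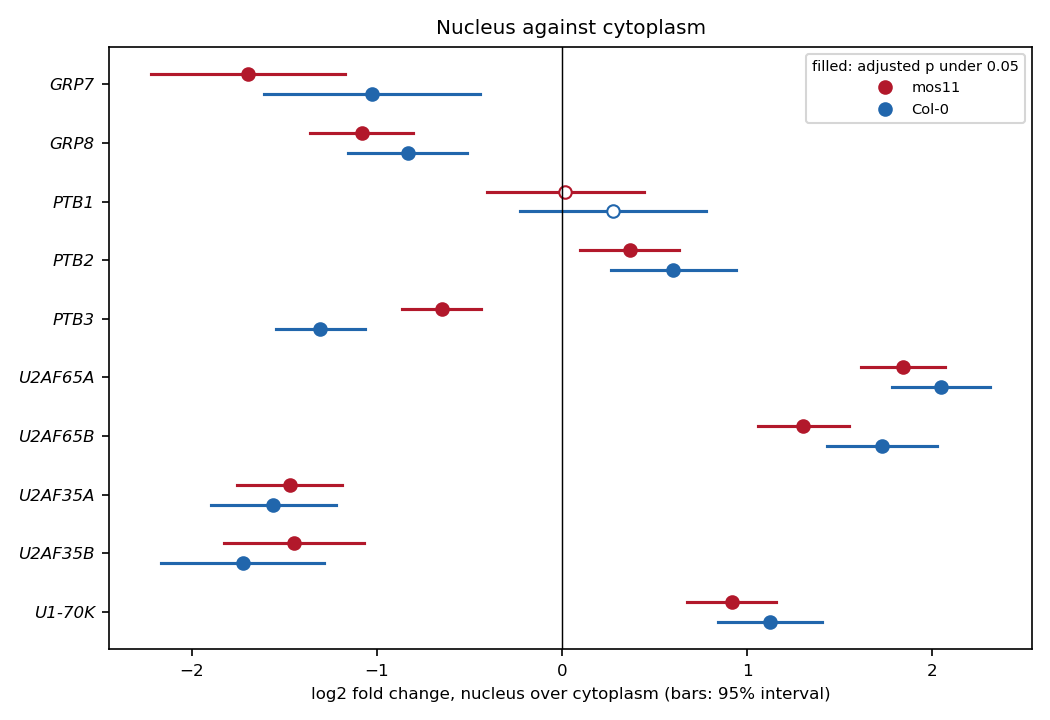
Log2 ratio of nucleus to cytoplasm for each of the 10 genes in mos11 and in Col-0, on the horizontal axis, with bars for the 95% interval from the fit and filled points for genes past the threshold. U2AF65A, U2AF65B, U1-70K and PTB2 lie above 0 and GRP7, GRP8, U2AF35A, U2AF35B and PTB3 below 0 in both genotypes.

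Over all 18 libraries, the U2AF large subunit genes and U1-70K had similar profiles, as did the small subunit genes. Pearson's r of log2 CPM was 0.977 between U2AF65A and U2AF65B, 0.968 between U2AF65B and U1-70K, 0.957 between U2AF65A and U1-70K, and 0.936 between U2AF35A and U2AF35B, a description over libraries that share fraction and depth. PTB2, also higher in the nucleus, had lower values of 0.794 with U2AF65A, 0.823 with U2AF65B and 0.722 with U1-70K. By the same measure over 12245 genes, the genes closest to PTB3 were AT3G08920 (0.981), AT3G53990 (0.976) and AT5G51010 (0.971). Those closest to U2AF65A were AT4G36980, AT5G63370 and AT2G41060, each at 0.991, and those closest to U1-70K were PAA2 (0.980), GTE8 (0.979) and DML2 (0.978). For GRP7 they were FAR1 (0.957), AT1G80380 (0.954) and ACLA-3 (0.952).

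Between the genotypes, the comparison asks which of these transcripts differ in level in each fraction of mos11. PTB3 was lower in the mos11 cytoplasm, with no overlap between the genotypes there. It stood at 88.8, 83.5, 79.7, 94.4 and 93.0 CPM in the mos11 cytoplasm, against 150, 147, 125 and 122 CPM in the Col-0 cytoplasm. All 5 mos11 values were below the lowest of Col-0. The share of all genes without overlap between the genotypes was not counted. PTB3 was 1.53-fold lower in the mos11 cytoplasm (log2 fold change -0.62 ± 0.12, adjusted p = 0.00089, edgeR), and it was the 1 member called of 10, where 12.4% of all genes were called (6.02% higher in mos11, 6.4% lower). The counts behind this were 52 to 85 reads per mos11 library and 51 to 94 per Col-0 library. PTB3 passed the threshold in 26 of 27 settings, with log2 fold changes from -0.66 to -0.55, and missed it in the test against a change of 1.5-fold (adjusted p = 0.88). The settings include the main fit and omissions of nuclear libraries, which are not part of this comparison and enter only through the shared fit.

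In the nucleus PTB3 did not pass the threshold. It stood at 61.6, 53.5, 57.7, 52.6 and 55.8 CPM in mos11 nuclei, against 56.2, 55.7, 50.6 and 55.9 CPM in Col-0 nuclei, a log2 fold change of 0.04 ± 0.10 with a 95% interval from -0.16 to 0.24 (adjusted p = 1, edgeR). The p from the F statistic alone was 0.69, and edgeR reports no p below that of a Poisson test, which gave 1 here. The nucleus to cytoplasm ratio was thus higher in mos11 than in Col-0 by 0.66 ± 0.15 on the log2 scale, or 1.58-fold, with a 95% interval from 1.27-fold to 1.96-fold (adjusted p = 0.03, edgeR interaction test). PTB3 was the 1 member called of 10, where 1.58% of all genes were called (0.66% higher in mos11, 0.919% lower). Same-numbered fractions were taken as pairs in Col-0 but not in mos11, and the main fit held no block. With replicate number as a block in both genotypes, GRP7 was called as well as PTB3 (GRP7 difference -0.72, adjusted p = 0.049, edgeR). In that fit 629 genes passed in place of 256. PTB3 passed the threshold in 22 of 26 settings, the main fit among them. The adjusted p was 0.073 (log2 difference 0.59) without replicate 1 of the Col-0 cytoplasm, 0.053 (0.63) without replicate 2 of the mos11 cytoplasm, and 0.08 with no filter on low counts, and in the test against a change of 1.5-fold PTB3 was not called.

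GRP7 and PTB1 were called lower in mos11 nuclei, 2 of 10 members, where 20.1% of all genes were called (9.14% higher in mos11, 10.9% lower). GRP7 stood at 19.8, 27.1, 22.2, 20.8 and 23.7 CPM in mos11 nuclei, against 33.6, 26.4, 86.8 and 32.6 CPM in Col-0 nuclei. The groups overlapped between 26.4 and 27.1 CPM, and replicate 3 of Col-0 stood far above the other Col-0 libraries. The log2 fold change was -0.93 ± 0.24 (adjusted p = 0.0056, edgeR), 1.91-fold lower in mos11. Without that library it was -0.40 (adjusted p = 0.078), and without replicate 3 of Col-0 in both fractions it was -0.40 (adjusted p = 0.043). With replicate number as a block it was -0.76 (adjusted p = 0.097, edgeR). Same-numbered nuclei of the 2 genotypes correlated at only -0.09 to 0.102 and were not taken as pairs.

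Of the 10 tested clock genes, replicate 3 had the lowest value of the 4 Col-0 nuclei for 3 and the highest for 6, and PRR9 lay within the range of the others. CCA1 was at 115 CPM there, against 194 to 256 CPM in the other 3 Col-0 nuclei, and LHY was at 76.6 CPM, against 103 to 121 CPM. By Dixon's criterion for 1 library far from the rest, it stood apart for 1 of the 10, ELF3, at 86.2 CPM against 48.9 to 54 CPM, a gene named after its values were seen. How often replicate 3 was the extreme over all genes was not counted. Over genes of the whole table, replicate 3 stood apart from replicates 1 and 2. Replicate 4 was closer to replicate 3 than to replicate 2. The chi-square over degrees of freedom of replicate 3 was 7.86 against replicate 1, 11.5 against replicate 2 and 4.73 against replicate 4. Among the others it was 1.95 (1 and 2), 4.5 (1 and 4) and 6.49 (2 and 4). CCA1 and LHY are clock proteins known to bind the evening element shown above, and whether their level accounts for the GRP7 value was not tested. GRP8, whose window also holds the element, was at 115 CPM in replicate 3 of Col-0 nuclei, within the group's 84.9 to 134 CPM. In replicate 3 of the Col-0 cytoplasm GRP8 was at 148 CPM, the lowest of a group that reached 237 CPM. In the Col-0 cytoplasm GRP7 was at 92.7, 57.6, 123 and 73.5 CPM, and replicate 3 was again the highest, against 77.3, 81.1, 93.5, 63.3 and 62.7 CPM in the mos11 cytoplasm. The log2 fold change of -0.27 ± 0.29 in the cytoplasm did not pass the threshold (adjusted p = 0.62, edgeR).

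PTB1 stood at 23.9, 23.4, 25.1, 18.1 and 23.7 CPM in mos11 nuclei, against 28.8, 25.1, 35.6 and 38.0 CPM in Col-0 nuclei. The groups overlapped only at 25.1 CPM, and replicate 4 of mos11 was the lowest. PTB1 was 1.39-fold lower in mos11 nuclei (log2 fold change -0.47 ± 0.16, adjusted p = 0.034, edgeR). The call was lost without any 1 of replicates 3 and 4 of Col-0 nuclei, replicates 1, 2, 4 and 5 of mos11 nuclei or replicate 4 of the mos11 cytoplasm, with values from -0.49 to -0.37 and adjusted p from 0.056 to 0.15. It was also lost with replicate number as a block (-0.41, adjusted p = 0.12), without replicate 3 of Col-0 in both fractions (-0.42, adjusted p = 0.059) and in the test against a change of 1.5-fold. Replicate numbers were not taken to pair the genotypes. PTB1 overlaps AT3G01160 on the other strand. In the cytoplasm, where it had 10 to 26 reads per mos11 library and 12 to 19 per Col-0 library, its log2 fold change was -0.21 ± 0.28 (adjusted p = 0.69, edgeR).

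The other genes did not pass the threshold between the genotypes in either fraction. In the nucleus their log2 fold changes ran from -0.21 for GRP8 to 0.04 for U2AF35B, and in the cytoplasm from -0.23 for U2AF35B to 0.31 for U2AF65B, which had a 95% interval from -0.01 to 0.62 (adjusted p = 0.2, edgeR). For U2AF65A the interval in the nucleus was -0.34 to 0.10 and for U1-70K it was -0.41 to 0.06. The median log2 fold change was -0.12 over the 10 members in the nucleus and -0.03 in the cytoplasm, against -0.07 and 0.04 over all genes.

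**Figure D3:**
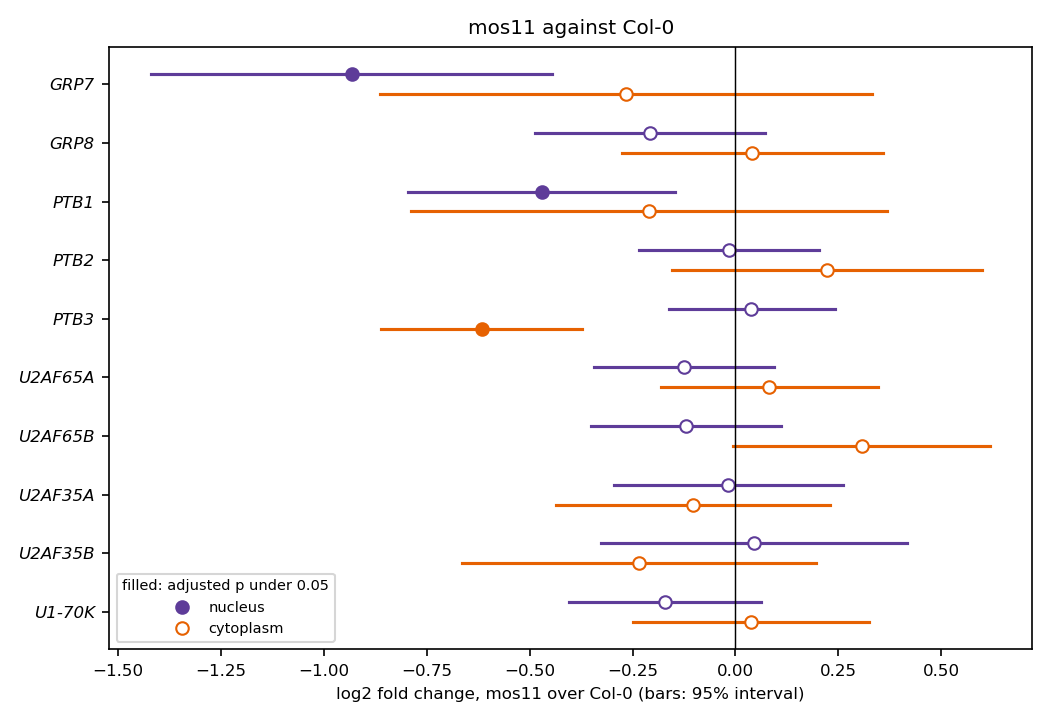
Log2 fold change of mos11 against Col-0 in the nucleus and in the cytoplasm for each of the 10 genes (horizontal axis), with bars for the 95% interval from the fit and filled points for genes past the threshold. PTB3 in the cytoplasm, at -0.62, and GRP7 and PTB1 in the nucleus, at -0.93 and -0.47, are the filled points.

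The share of each paralogue within its pair, per kilobase of exon, does not depend on library scaling. GRP8 made up 83.3%, 80.8%, 79.1%, 82.9% and 79.4% of GRP7 and GRP8 in mos11 nuclei, against 80.8%, 77.2%, 58.3% and 75.9% in Col-0 nuclei. Replicate 3 of Col-0 was the lowest, and the groups overlapped. The means were 81.1 ± 1.9% (SD, n = 5) and 73 ± 10% (SD, n = 4), with p = 0.032 in a two-sided exact permutation test (adjusted p = 0.13 over 8 tests). The difference was 8.06 percentage points, and 3.14 without replicate 3 of Col-0 nuclei (adjusted p = 0.21).

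PTB2 made up 60.2 ± 2.6% of PTB1 and PTB2 in mos11 nuclei (SD, n = 5), against 52.5 ± 5.5% in Col-0 nuclei (SD, n = 4), with p = 0.016 in the same exact permutation test (adjusted p = 0.13). Library values ran from 57.4% to 64.4% in mos11 and from 47.3% to 58.4% in Col-0. None of the 8 shares, over 4 pairs and 2 fractions, passed after adjustment, and 2 passed before it. U2AF65B made up 32.1 ± 0.73% of its pair in mos11 nuclei (SD, n = 5) and 32.3 ± 2.3% in Col-0 nuclei (SD, n = 4). In the cytoplasm it made up 40.3 ± 3.1% in mos11 (SD, n = 5) and 36.3 ± 3.3% in Col-0 (SD, n = 4, exact permutation p = 0.087). The smallest p that 126 splits can give is 0.0079.

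**Figure D4:**
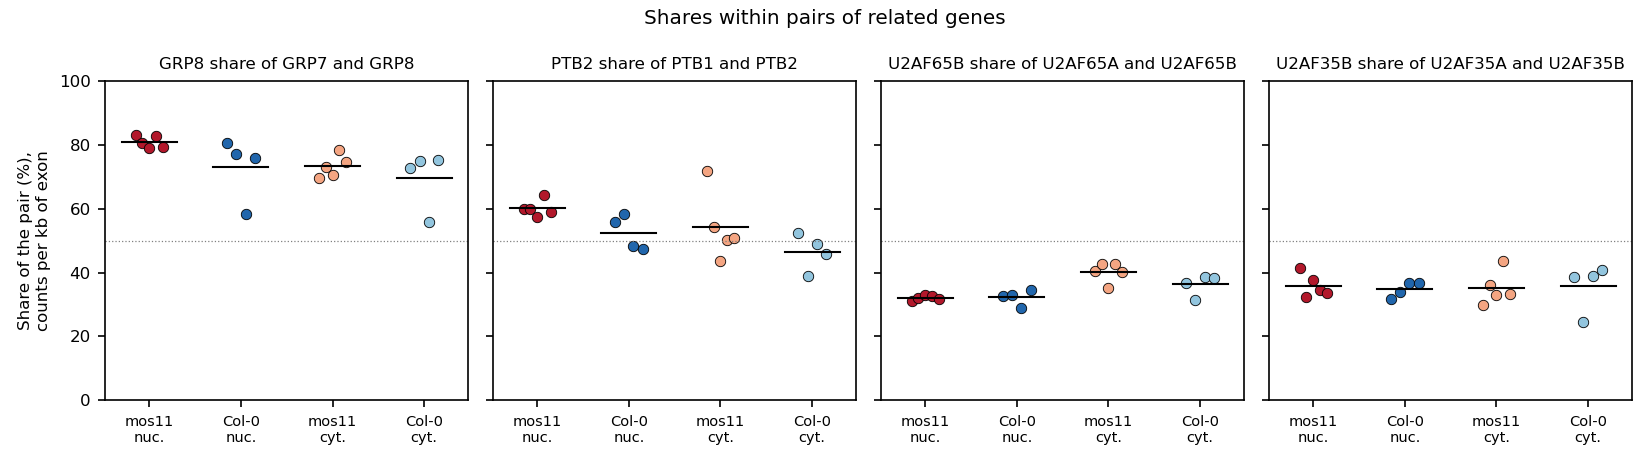
Percent of one paralogue within its pair, per kilobase of exon, in each library by group, with each point a library and the line the group mean. GRP8 of GRP7 and GRP8 lies at 79.1% to 83.3% in mos11 nuclei and at 58.3% to 80.8% in Col-0 nuclei.

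Of 19 tested U1 and U2 snRNP and branch-point genes, the partners of U1-70K and U2AF at the splice sites, 1 was lower in mos11 nuclei (LUC7RL, a gene for a LUC7-type protein of the U1 snRNP, log2 fold change -0.42, adjusted p = 0.013, edgeR) and 1 was lower in the mos11 cytoplasm (SF3A2, a U2 protein gene, -0.79, adjusted p = 0.0019, edgeR). Over all genes 20.1% were called in the nucleus and 12.4% in the cytoplasm. LUC7RL was not called without Col-0 replicate 3 in both fractions. Of 15 genes for U-rich and poly(A) binding proteins, edgeR called 0 in either fraction (2 at an unadjusted p under 0.05 in the nucleus and 0 in the cytoplasm), and DESeq2 called 1 in the nucleus and 0 in the cytoplasm. Of the 6 tested of 8 other glycine-rich genes, edgeR called 0 in either fraction (0 at an unadjusted p under 0.05 in the nucleus and 3 in the cytoplasm), and DESeq2 called 0 in the nucleus and 1 in the cytoplasm. Between the fractions, 8 of the 19 splice-site genes were higher and 8 lower in mos11 nuclei, among them PRP40B at 2.58 and U1C at -2.56, and both counts were near the 40.8% and 35.3% of all genes. All 6 tested glycine-rich genes were lower in the nucleus in both genotypes, from -3.93 for GRP3 to -0.70 for RZ1C in mos11. Of all genes, 35.3% were lower there in mos11 and 32.8% in Col-0. The share of all genes at an unadjusted p under 0.05 was not counted. Between genotypes, DESeq2 called 3743 genes in the nucleus and 2388 in the cytoplasm, of 26481 genes in its fit.

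Of the 10 tested of 11 clock genes, 3 were higher and 1 lower in mos11 nuclei, and 2 were higher in the mos11 cytoplasm, where all genes gave 20.1% called in the nucleus (9.14% higher, 10.9% lower) and 12.4% in the cytoplasm (6.02% higher, 6.4% lower). In the nucleus the log2 fold change was 0.52 for LHY, 0.88 for PRR9 and -0.89 for PRR7, and in the cytoplasm CCA1 was 2.14-fold and LHY 2.77-fold higher in mos11 (adjusted p = 0.0015 and 2.7e-06, edgeR). These counts were the same without Col-0 replicate 3 in both fractions. The median of the list was -0.28 in the nucleus and 0.48 in the cytoplasm, against -0.07 and 0.04 over all genes.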

How the data were processed

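The labels list 28 samples, which are 18 libraries, and the authors deposited raw counts per gene, 1 column per library. All cytoplasmic columns and that of mos11 nuclei replicate 2 match samples on 2 flow cells, and whether they sum both is not stated. Per the submitters' processing notes, the tools included featureCounts, UMI-tools, Picard and STAR 2.7.8a, with TAIR10 as the build, and their roles and the counting strand are not stated. Each library held the total counts given in the report, and cytoplasmic values rest on fewer reads.

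The counts were fitted in R 4.3.3 with edgeR 4.0.16 (quasi-likelihood test, TMM, filterByExpr, 4 groups together, adjusted p of 0.05). Standard errors are approximate (log2 fold change divided by the root of the F statistic), and positive values mean higher in mos11 or in the nucleus. Positions and sequences came from RefSeq's TAIR10.1, which holds all 30901 loci. Exact permutation tests were used for shares of paralogues. The fit was tested on simulated data. Alternatives were DESeq2 1.42.0, median-of-ratios scaling, other filters, replicate number as a block, a minimum change of 1.5-fold in the test, fits of only the groups compared and the omission of libraries.

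The members and lists were chosen with earlier results of these data known, the members by locus identifier with no use of their measured values. The text names all 10 members, MOS11, up to 3 genes of each list with the smallest p past the threshold between genotypes, the 3 genes most correlated with a member for some members, and extremes of a list between fractions, chosen after their values were seen. Same-numbered libraries correlated at 0.105 to 0.333 between the fractions of Col-0, so numbers were taken to pair those samples, at 0.015 to 0.053 between those of mos11, and at -0.09 to 0.102 and -0.02 to 0.036 between genotypes in nucleus and cytoplasm.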

Additional observations from a re-analysis of the deposited data

Results flagged for a closer look

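In 5 of 40 groups of libraries, 1 library stood apart from the others by Dixon's criterion, which chance meets in about 1 in 20 groups. Replicate 3 of Col-0 nuclei was such a library for GRP7 (86.8 CPM, the highest), for U2AF65A (824 CPM, the highest) and for PTB3 (50.6 CPM, the lowest). Replicate 4 of mos11 nuclei was the lowest for PTB1, at 18.1 CPM, and replicate 4 of the mos11 cytoplasm was the highest for U2AF65A, at 198 CPM. The PTB3 ratio of nucleus to cytoplasm differed between the genotypes by 0.66 on the log2 scale in the interaction test (adjusted p = 0.03, edgeR).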

How the results depend on the processing

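The nucleus to cytoplasm calls of 9 members held in every setting that leaves out a library. In the nucleus between genotypes, members past the threshold numbered 0 to 2 over the omissions of 1 library, 0 with the replicate block, 0 in the test against a change of 1.5-fold (425 genes in all) and 1 without Col-0 replicate 3 in both fractions. In the cytoplasm they numbered 0 in the 1.5-fold test (210 genes), and 968 genes were called with the replicate block. For the difference in the nucleus to cytoplasm ratio, 256 genes passed the threshold, against 132 to 333 over the omissions (132 to 163 without replicate 2, 3 or 5 of mos11 nuclei, 4 of Col-0 nuclei, 2 or 4 of the mos11 cytoplasm, or 4 of the Col-0 cytoplasm), 588 with DESeq2, 8 in the 1.5-fold test and 629 with the replicate block. Members there numbered 0 to 1 over the omissions, 0 with no filter, 0 in the 1.5-fold test and 2 with the block, GRP7 being the second (-0.72, adjusted p = 0.049). The block changed no member's call between the fractions. Between genotypes, same-numbered libraries were not taken as pairs.

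Signs turned only for values that did not pass the threshold, and the cause was not tested. In the nucleus PTB2 was 0 with median-of-ratios scaling, 0.004 with DESeq2, 0.039 with the block and 0.037 in a fit of only the groups compared. U2AF35A was 0.007 with the block, 0.036 in that fit and 0.014 without Col-0 replicate 3, where U2AF65A was 0.015. In the cytoplasm GRP8 was -0.002 and U1-70K -0.004 with median-of-ratios scaling, and U1-70K was -0.003 with DESeq2. Without Col-0 replicate 3 in both fractions GRP8 was -0.086, U2AF35A 0.129 and U2AF35B 0.037, and the U2AF35A ratio difference was -0.114. Over omissions of 1 library, nuclear values ran from -0.035 to 0.042 for PTB2, -0.176 to 0.014 for U2AF65A, -0.087 to 0.051 for U2AF35A and -0.045 to 0.109 for U2AF35B. Cytoplasmic ones ran from -0.076 to 0.17 for GRP8, -0.204 to 0.135 for U2AF35A, -0.419 to 0.049 for U2AF35B and -0.072 to 0.154 for U1-70K. Ratio differences ran from -0.151 to 0.187 for U2AF35A and -0.006 to 0.462 for U2AF35B, and the PTB1 ratio in mos11 from -0.148 to 0.228. Share differences in percentage points ran from -1.28 to 0.561 for U2AF65B and -0.227 to 2.04 for U2AF35B in the nucleus, and from -1.16 to 5.42 for GRP8 and -4.27 to 1.23 for U2AF35B in the cytoplasm. Low counts in the cytoplasm limit PTB1 and PTB2 most.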
